A study of Arabidopsis thaliana with 12 samples.

Results

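Dark-grown seedlings of rrc1-3 and Col-0 supplied 6 of the 12 libraries of the study, 3 labelled rrc1_Dark and 3 labelled Col_Dark, chosen by their labels. Every library came from whole Arabidopsis thaliana seedlings of the Col-0 background raised for 4 days in the dark on half-strength MS medium. Col-0 is the wild type, and rrc1-3 is a mutant allele of RRC1 (AT5G25060). The lesion of the allele is not given in the sources used here, and the labels do not say that replicates were grown apart, so the spread between libraries may be technical. The treatment field of all samples also names red light, although the growth field and title of these 6 give darkness only, and they are treated here as dark samples. The design asks how splicing differed between the genotypes. The deposited files for darkness list 5630 genes called different in expression and 6244 bins, that is introns or parts of exons, called different in splicing. Of these bins, 5977 in 4095 genes were analysed. The other 267 carry junction reads that belong to another gene than the one named in their row.

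RRC1 encodes a nuclear protein with an arginine- and serine-rich region that works with SFPS in pre-mRNA splicing and in light signalling through phytochrome B. During splicing, the U1 particle pairs with the 5′ splice site at the start of an intron, and the U2AF and U2 particles recognise the 3′ splice site and the branch point upstream of it. The intron is then cut out and the exons are joined. An intron left in the RNA is said to be retained, and retained introns often bring a premature stop codon or keep the RNA in the nucleus. A seedling in darkness is etiolated: it extends its hypocotyl, keeps a closed apical hook and holds its plastids as etioplasts, which lack the photosynthetic apparatus until light arrives.

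The alternative 3′ splice sites with the largest changes are shown first, since the strongest shifts in splice site choice lie there. Each window runs 5′ to 3′ on the coding strand of the TAIR10 build, with sequence from the RefSeq genome, and the capitals mark the upstream and the downstream AG between which the spliceosome chose. In the first 4 genes the upstream AG was used more in rrc1-3, and in the last 3 it was used less. The windows are chr2:629498-629544 (plus strand) for GSTZ1, chr3:21622384-21622430 (plus) for AT3G58450, chr1:6681495-6681535 (minus) for AT1G19330, chr1:3995996-3996046 (plus) for GLX1, chr5:19125974-19126008 (minus) for CKB1, chr1:667432-667484 (minus) for AT1G02960 and chr1:631908-632005 (plus) for BGLU11.
GSTZ1: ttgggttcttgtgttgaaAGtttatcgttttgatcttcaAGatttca
AT3G58450: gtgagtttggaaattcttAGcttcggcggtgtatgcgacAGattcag
AT1G19330: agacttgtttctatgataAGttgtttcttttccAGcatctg
GLX1: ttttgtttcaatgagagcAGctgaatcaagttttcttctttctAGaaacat
CKB1: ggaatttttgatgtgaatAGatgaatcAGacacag
AT1G02960: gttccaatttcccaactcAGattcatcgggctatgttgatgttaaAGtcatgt
BGLU11: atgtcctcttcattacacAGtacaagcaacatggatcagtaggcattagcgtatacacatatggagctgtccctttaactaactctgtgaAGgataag

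Introns whose retention changed most are shown next, with the 2 bases at each end in capitals. The first 3 were retained less in rrc1-3. They are intron 7 of RIK at chr3:11291635-11291894 (plus strand) and introns 4 and 5 of POLD3 at chr1:29584007-29584096 and chr1:29584513-29584619 (plus). For intron 15 of RRC1 itself, which was retained more, the first 30 bases at chr5:8635273-8635302 and the last 30 at chr5:8634834-8634863 (minus strand) are given.
RIK intron 7: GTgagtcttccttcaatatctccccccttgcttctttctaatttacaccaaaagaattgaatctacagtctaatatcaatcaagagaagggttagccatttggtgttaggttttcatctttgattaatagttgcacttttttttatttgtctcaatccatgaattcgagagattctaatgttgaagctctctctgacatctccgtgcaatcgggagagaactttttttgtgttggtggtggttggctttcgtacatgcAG
POLD3 intron 4: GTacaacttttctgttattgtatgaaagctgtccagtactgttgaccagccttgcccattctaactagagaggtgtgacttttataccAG
POLD3 intron 5: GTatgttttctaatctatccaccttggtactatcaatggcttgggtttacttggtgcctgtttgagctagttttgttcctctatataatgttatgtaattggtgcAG
RRC1 intron 15, first 30: GTatgatcaatgcatctctttatgaaaaga
RRC1 intron 15, last 30: tctcccttgctctgttttttgttactgcAG

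The mutated gene was examined first. RRC1 was not among the genes the authors listed as different in expression, but 4 of its introns were in the splicing listing. SFPS (AT1G30480), its partner, was in neither listing. Intron 15 was retained in 3.46%, 4.95% and 3.24% of the reads in the 3 Col-0 libraries, and in 88.6%, 98.4% and 89.9% in the 3 rrc1-3 libraries. Every mutant library was thus far above every wild-type library, and the log2 change in the odds of retention was 8.27 ± 0.44 (SE, edgeR's quasi-likelihood test, adjusted p = 1.3e-11). Intron 13, 144 nt long, was retained in 5.12%, 6.38% and 4.55% in Col-0 and in 14.1%, 22.1% and 16.7% in rrc1-3. These groups did not overlap either, and the log2 change in odds was 1.91 ± 0.40 (SE, edgeR adjusted p = 0.0012). Intron 14 also rose, with a log2 change in odds of 1.36 ± 0.27 (SE, edgeR adjusted p = 0.00076). Intron 2 went the other way, from 14.7%, 12.9% and 14.5% to 8.76%, 7.82% and 8.03%, with no overlap and a log2 change in odds of -0.87 ± 0.26 (SE, edgeR adjusted p = 0.0096). The junction reads of RRC1 thus differed from Col-0 in every library labelled rrc1-3. Since the lesion of the allele is not given, retention of intron 15 and a direct effect of the lesion on these reads cannot be told apart.

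The splicing table gives, for each library, the reads that cross each junction. Over the 5977 bins a library held between 1424175 and 1857394 such reads, and the median bin had between 117 and 179 reads per library. Retention of an intron is the share of reads that run across its boundaries rather than over the spliced junction, and inclusion of an exon part is the share of reads that contain it. All bins had been called by the authors, with differences of at least 3.001 percentage points, so the sizes and errors are new here and the presence of a change is not. Of the 5977 bins, 3261 passed edgeR's test on the junction reads at an adjusted p of 0.05, which is 54.6%. That was 1558 bins with higher inclusion or retention in rrc1-3 (26.1%) and 1703 with lower (28.5%). The 3 libraries of one genotype all lay above those of the other in 3812 bins (63.8%). An exact permutation test on a single bin cannot fall below 0.1 with 3 libraries against 3.

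Intron retention made up most of the listing, in both directions. Of 4770 plain introns, those that overlap no other event, 2060 were retained more in rrc1-3 and 2710 less. The medians of the raised introns were 6.30% in Col-0 and 13.2% in rrc1-3, and those of the lowered introns 12.7% and 6.73%. The edgeR test was passed by 1216 raised and 1504 lowered plain introns. A further 810 introns that overlap an alternative event leaned the other way, with 568 raised and 242 lowered. The authors' deposited log2 change of the whole intron bin was lower in 452 of these 568 raised introns. It was also lower in 784 of the 2060 raised plain introns. It was higher in 40 of the 242 and in 21 of the 2710 lowered ones. Alternative 3′ sites were split, with the upstream site used more in 94 bins and less in 104, and 40 and 38 of these passed. At alternative 5′ sites the downstream site was used more in 63 bins and less in 85, and 21 and 31 passed. Every listed skipped exon, 25 in number, and each of the other 26 exon bins was included less in rrc1-3. Among these, 15 and 22 passed. Their median inclusion in Col-0 was 71.6% and 95.6%, so the other exon bins had little room to rise. The authors' deposited log2 change of the whole bin was higher in 4 of the 25 and 15 of the 26.

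Where an intron lies in the transcript went with the direction of its change. Of 708 plain introns in 5′ untranslated regions, 526 were retained more in rrc1-3, which is 74.3%. Of 3837 introns between coding exons, 1443 were retained more, or 37.6%, and of 162 in 3′ untranslated regions 59. Introns in 5′ untranslated regions that overlap another event went the same way, with 368 of 442 raised (83.3%). The log2 change of the whole intron bin in the authors' deposited table went the other way in most of the raised ones: it was higher in 29 of the 526, with a median of -0.87. Over the 1443 raised coding introns the median in the authors' deposited table was 1.12. These shares count only introns the authors listed and were not tested.

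The reads behind the raised retention differed between these places. For the 526 raised introns of 5′ untranslated regions, reads across the intron boundaries had a median log2 change of -0.04 in rrc1-3 over Col-0, while reads of the spliced junction had a median change of -1.0. For the 1443 raised coding introns the boundary reads had a median change of 1.55 and the spliced reads one of 0.25. The raised share thus went with fewer spliced reads in the first place and with more boundary reads in the second. The 2394 lowered coding introns had a median of -0.27 for boundary reads and 0.78 for spliced reads. These medians use reads scaled to the total of the listed junctions in each library, so they are relative to the other listed bins.

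**Figure D1:**
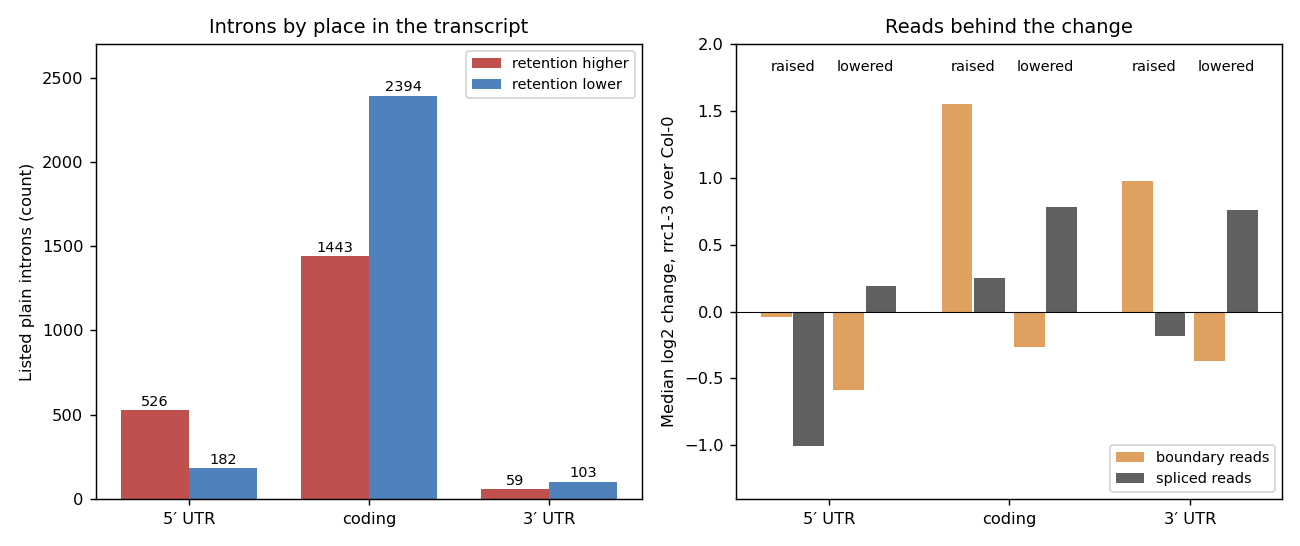
Left, the number of listed plain introns with higher (red) and lower (blue) retention in rrc1-3, for 5′ untranslated, coding and 3′ untranslated regions. Right, the median log2 change of boundary reads (orange) and spliced reads (grey) in the same introns: in the 526 raised introns of 5′ untranslated regions the spliced reads have a median of -1.0, and in the 1443 raised coding introns the boundary reads have a median of 1.55.

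Position along the gene was set beside location. Of plain introns that came first in their gene 62.0% were raised, against 33.5% of those in the middle and 45.4% of last introns. Among first introns, those in 5′ untranslated regions were raised in 74.8% and those between coding exons in 48.4%. Coding introns after the first were raised in 35.3%. The order was different by the authors' deposited log2 change of the whole intron bin. Introns both raised and higher by that measure were 12.4% of first, 29.9% of middle and 38.1% of last introns. Among coding introns they were 23.2% of first and 32.2% of later ones. In genes with at least 8 introns, 178 of the 244 introns of 5′ untranslated regions at the start of the gene were raised (73.0%), and coding introns in 4 equal parts along the gene had 38.6%, 26.4%, 28.6% and 27.9% raised. The median log2 change of spliced reads went from -0.80 at those first introns of untranslated regions to 0.48, 0.68, 0.70 and 0.72 over the 4 coding parts.

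Intron length and base composition also went with the direction. Among coding introns split into 5 groups by length, 51.1% of those of 61 to 86 nt were raised, then 43.8%, 37.4% and 26.3%, and 28.9% of those of 294 to 3388 nt. By GC content the 5 groups of plain introns had 33.4%, 38.9%, 39.6%, 45.4% and 58.8% raised, from the lowest to the highest GC. Introns with GT and AG ends were 98.6% of the total. Of 16 plain introns with the sequence marks of the minor, U12-dependent class, 11 were raised, against 43.2% of all plain introns. Of the 11, 4 passed edgeR's test. Lowered introns of this class in AT2G43210, AT3G59330 and AT4G15030 passed too (edgeR adjusted p = 0.046, 0.0028 and 0.027). Over all plain introns 57.0% passed, and the direction of this class was not tested. Both listed introns with AT and AC ends had higher retention, and neither passed (edgeR adjusted p = 0.065 for AT1G73350 and 0.128 for HRB1, whose libraries overlap between genotypes).

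Several single introns show large falls in retention. RIK encodes a KH-domain protein that binds the leaf patterning factor AS1. Its intron 7, shown above, was retained in 85.3%, 93.4% and 85.3% in Col-0 and in 30.3%, 26.8% and 27.9% in rrc1-3, a log2 change in odds of -4.18 ± 0.33 (SE, edgeR adjusted p = 1.2e-08). The mutant libraries lay close together and far below the wild type.

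POLD3 encodes a subunit of DNA polymerase delta, a replicative polymerase. Its intron 4 was retained in 51.9%, 54.7% and 55.3% in Col-0 and in 13.4%, 6.47% and 6.17% in rrc1-3. The neighbouring intron 5 was retained in 58.3%, 68.5% and 71.9% in Col-0 and in 17.5%, 15.4% and 19.0% in rrc1-3. Both introns thus fell in every mutant library, by log2 odds of -3.69 ± 0.52 and -3.21 ± 0.38 (SE, edgeR adjusted p = 2.7e-05 and 3.5e-06). An intron in the 3′ untranslated region of AT2G42330 went from 98.3%, 86.3% and 93.8% to 31.1%, 53.5% and 45.1%, with no overlap between the groups.

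**Figure D2:**
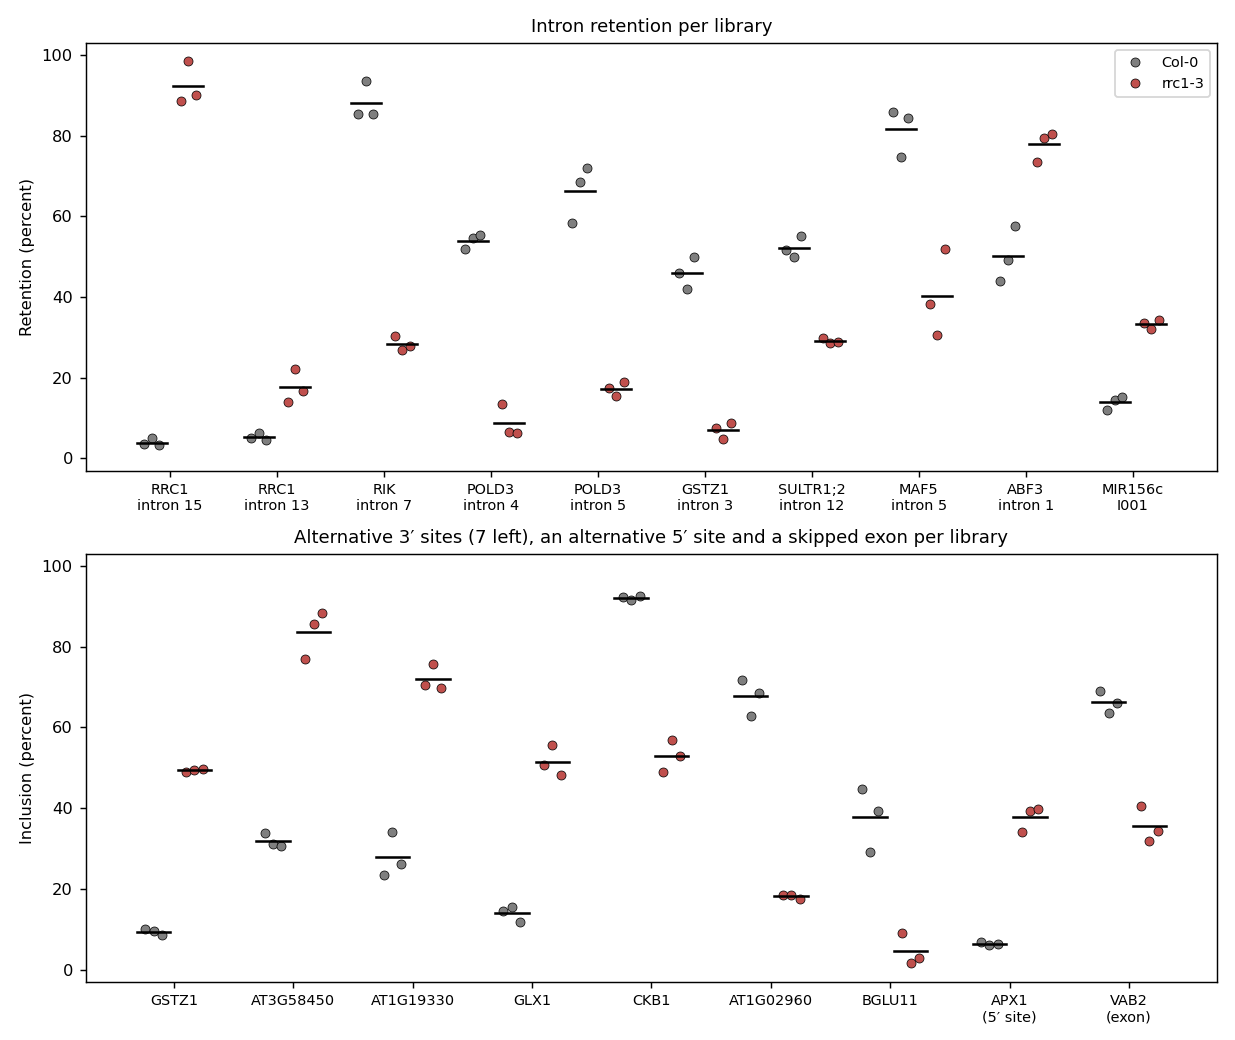
Retention of 10 introns (top) and inclusion at 7 alternative 3′ sites, an alternative 5′ site and a skipped exon (bottom), in percent, for each of the 3 Col-0 (grey) and 3 rrc1-3 (red) libraries, with the group mean as a bar. In each of these bins the genotypes do not overlap; RRC1 intron 15 has a mean of 3.88% in Col-0 and 92.3% in rrc1-3.

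The shifts to the upstream AG begin with GSTZ1, which encodes a zeta-class glutathione transferase that acts as maleylacetoacetate isomerase in tyrosine breakdown. Its upstream AG, which adds 21 nt to the RNA, was used in 10.01%, 9.69% and 8.46% of reads in Col-0 and in 49.0%, 49.3% and 49.8% in rrc1-3. The log2 change in odds was 3.23 ± 0.20 (SE, edgeR adjusted p = 9.0e-11), and every mutant library was above every wild-type one. Retention of intron 3 of GSTZ1, which ends at that upstream AG, went from 45.9%, 41.9% and 49.8% to 7.53%, 4.69% and 8.72%. The spliced reads of this intron are those of the upstream site, so these bins share reads and are not separate evidence.

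Further genes moved to the upstream AG in the same way. In AT3G58450 the upstream site, 21 nt before the other, was used in 33.9%, 31.03% and 30.7% in Col-0 and in 77.0%, 85.7% and 88.4% in rrc1-3. In AT1G19330, with 15 nt between the sites, the values were 23.4%, 34.01% and 26.2% against 70.6%, 75.6% and 69.8%. GLX1 encodes a glyoxalase, which clears methylglyoxal, and its upstream site 25 nt away went from 14.5%, 15.6% and 11.7% to 50.8%, 55.6% and 48.3%. In all 3 genes the genotypes were fully apart, with log2 changes in odds of 3.44, 2.75 and 2.72 and edgeR adjusted p of 4.1e-07, 2.6e-06 and 1.6e-08.

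Other genes moved to the downstream AG. CKB1 encodes a regulatory beta subunit of casein kinase 2, a kinase with roles in the clock and in light responses. Its upstream site, 9 nt before the other, was used in 92.2%, 91.6% and 92.6% in Col-0 and in 48.9%, 56.8% and 53.0% in rrc1-3 (log2 change in odds -3.38, edgeR adjusted p = 3.5e-08). In AT1G02960 the upstream site, 27 nt away, went from 71.8%, 62.9% and 68.6% to 18.5%, 18.4% and 17.5%. The beta-glucosidase gene BGLU11 had 72 nt between its sites and went from 44.7%, 29.2% and 39.3% to 9.05%, 1.54% and 2.90%. Inclusion thus fell in every mutant library of these genes, and the wild-type libraries of BGLU11 were the most spread.

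The 198 alternative 3′ bins were also described by their sequence. The median distance between the sites was 13 nt, 36 bins had sites exactly 3 nt apart, and 54.0% of the distances were multiples of 3 nt. At alternative 5′ sites the median was 32 nt and 35.8% were multiples of 3 nt. Both 3′ sites ended in AG in 94.7% of the bins whose upstream site was used more and in 96.2% of those where it was used less. The next shares cover the bins with AG at both sites. The share of pyrimidines before the upstream site had a median of 64.7% in both directions, and that before the downstream site 58.8% in both. The downstream AG followed a C or a T, the letters CAG or TAG, in 84.3% of the bins with more upstream use and in 75% of those with less. The upstream AG did so in 70.8% of the bins with more upstream use and in 77.0% of those with less. These shares are descriptions and were not tested.

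The clearest alternative 5′ site was in APX1, which encodes the cytosolic ascorbate peroxidase that removes hydrogen peroxide. The downstream site, which adds 82 nt, was used in 6.79%, 6.16% and 6.41% in Col-0 and in 34.2%, 39.2% and 39.8% in rrc1-3, over at least 1904 reads per library. The log2 change in odds was 3.13 ± 0.16 (SE, edgeR adjusted p = 9.4e-12). In NAC082, a NAC-family transcription factor gene, the downstream site fell from 87.9%, 86.6% and 89.1% to 62.9%, 52.7% and 63.8% (edgeR adjusted p = 2.8e-05). TTL, which encodes a transthyretin-like enzyme of purine breakdown, had its downstream site at 36.4%, 37.1% and 29.4% in Col-0 and at 58.5%, 58.3% and 58.6% in rrc1-3. No library crossed between the genotypes at these 3 sites.

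Among skipped exons, a 16 nt exon of VAB2, a subunit gene of the vacuolar proton pump, gave a clear example. It was included in 69.1%, 63.6% and 66.1% in Col-0 and in 40.6%, 32.0% and 34.4% in rrc1-3 (log2 change in odds -1.83 ± 0.23 SE, edgeR adjusted p = 8.1e-06). A 63 nt exon of AMSH2, which encodes a deubiquitinating enzyme of endosomes, went from 91.3%, 93.1% and 88.95% to 71.1%, 77.6% and 65.4% (edgeR adjusted p = 0.00012). Both exons were included less in each mutant library than in any wild-type library.

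Families of RNA-processing genes stood in the splicing listing as follows. Of the 27444 nuclear protein-coding genes annotated, 14.8% had an analysed bin, and the median number of introns is given beside each family because a gene with more introns has more bins to be listed. Nonsense-mediated decay and exon junction factors, which destroy RNAs with early stop codons, had a bin in 7 of 13 members (median of 8 introns), with 2 introns raised and 10 lowered. Factors that cut and polyadenylate the 3′ end had one in 8 of 16 (10 introns), and nuclear pore and RNA export genes in 10 of 22 (9 introns), with 2 raised and 13 lowered. DEAD-box and related RNA helicases, which unwind RNA, had one in 22 of 75 (9 introns), with 13 raised and 24 lowered. A list of further splicing factors, chosen by their MAC, CWC, SKIP and PRP symbols, had a bin in 3 of 16 members (8 introns), with 15 lowered introns and none raised, and PRP40A and PRP40B carried 7 of these each, of which 4 and 0 passed edgeR's test. In the authors' deposited table of pathways for these spliced genes, mRNA surveillance was listed with 50 genes at an adjusted p of 9.5e-07 and the spliceosome with 56 at 0.059.

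Single members show the levels. PRP40A encodes a protein that bridges the ends of an intron early in splicing. It had 7 lowered introns and none raised, of which 4 passed edgeR's test, and its intron 16 went from 17.6%, 19.3% and 17.9% to 8.45%, 5.85% and 6.96%. PRP40B, its paralogue, also had 7 lowered introns, of which none passed. SKIP, a splicing and transcription cofactor gene known for its part in the clock, had a lowered intron in its 5′ untranslated region at 17.1%, 16.6% and 15.2% against 6.99%, 9.51% and 10.1% (edgeR adjusted p = 0.0044). An intron of PABN1, a poly(A)-binding protein gene, fell from 12.1%, 8.97% and 11.3% to 4.21%, 4.41% and 4.41% (edgeR adjusted p = 0.00078). In each of these named introns the genotypes did not overlap.

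Chromatin genes took part in both directions. Of 86 remodellers and modifiers, 30 had a bin (median of 9 introns), with 23 introns raised and 22 lowered. Among all genes, the most bins were 8, found in 7 genes. In ATRX and GTB1, which encode a chromatin remodeller and a transcription elongation factor, the 8 listed introns of each gene, out of 27 and 16 annotated, had lower retention, and 5 and 6 passed edgeR's test. BSL2, AT5G55660 and EMB3144 each had 8 listed introns too, out of 20, 11 and 16, all with lower retention, and 5, 1 and 6 passed edgeR's test. In the authors' deposited table these 5 genes were higher in rrc1-3, by log2 changes of 1.20 (ATRX), 1.06 (GTB1), 0.66 (BSL2), 1.41 (AT5G55660) and 0.60 (EMB3144). In CHR18, a chromatin remodeller gene, and HEI10, a gene of meiotic crossover, the 8 listed introns of each gene, out of 23 and 9, had higher retention, and 3 and 2 passed edgeR's test. Over all genes with 2 or more bins, 312 of 1199 had raised bins only, 436 lowered only and 451 both.

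Other families differed in the direction of their introns, and some had a smaller share of members with a bin than the 14.8% of all genes. Among F-box proteins, the target-binding parts of ubiquitin ligases, 33 of 652 had a bin (5.06%, median of 1 intron), with 32 introns raised and 9 lowered. Calcium-dependent kinases and calmodulins had 9 of 84 (10.7%) with 12 raised and 2 lowered, and MADS and SPL factors, which act in flowering time and phase change, had 11 of 100 (11%) with 12 raised and 4 lowered. Ribosomal protein genes not matched to the plastid list by name had 35 of 337 (10.4%), with 30 raised and 7 lowered. They may still include plastid members. Autophagy genes had 7 of 28 (25%, median of 5.5 introns) with 7 raised and 1 lowered. Receptor-like kinases had 37 of 342 (10.8%, 2 introns) with 17 raised and 26 lowered. Brassinosteroid genes had 9 of 42 (21.4%, 5.5 introns) with 4 and 14, and abscisic acid genes 15 of 62 (24.2%, 3 introns) with 8 and 14. Over the whole listing, 43.2% of plain introns and 70.1% of introns that overlap another event were raised. No family was tested against these shares. Arabinogalactan and extensin wall proteins, aquaporins and tubulins had no bin at all.

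Some of these introns sit in genes of hormone and stress responses. ABF3 encodes a bZIP factor that carries the abscisic acid signal, and the first intron of its 5′ untranslated region was retained in 43.9%, 49.2% and 57.5% in Col-0 and in 73.4%, 79.5% and 80.5% in rrc1-3 (log2 change in odds 1.81 ± 0.22 SE, edgeR adjusted p = 5.5e-06). CPK32, a calcium-dependent protein kinase gene, had its first intron at 8.50%, 10.2% and 12.5% against 23.6%, 23.4% and 27.2% (edgeR adjusted p = 5.6e-05). CKX5 encodes a cytokinin oxidase, which degrades the hormone, and its intron 4 went from 6.82%, 8.02% and 10.6% to 24.4%, 18.9% and 22.8% (edgeR adjusted p = 0.00029). The rrc1-3 libraries were above the Col-0 libraries without exception at these introns.

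The ethylene gene EIN2 and the microRNA gene MIR156c showed the same direction at different levels. EIN2 encodes the central membrane protein of ethylene signalling, and the intron of its 5′ untranslated region went from 2.68%, 2.97% and 2.17% to 5.08%, 6.21% and 5.64% (edgeR adjusted p = 0.00021). MIR156c is a source of miR156, which represses SPL genes in young plants. Its first listed intron, 718 nt long, was retained in 12.1%, 14.4% and 15.3% in Col-0 and in 33.5%, 31.9% and 34.2% in rrc1-3 (log2 change in odds 1.62 ± 0.19 SE, edgeR adjusted p = 2.3e-06). Neither gene was listed for expression, and no libraries of different genotype overlapped.

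Retention fell in introns of other genes. MAF5, a MADS gene of the FLC clade that delays flowering, had its last intron at 85.9%, 74.8% and 84.3% in Col-0 and at 38.2%, 30.6% and 51.8% in rrc1-3 (log2 change in odds -2.74 ± 0.53 SE, edgeR adjusted p = 0.00055). SULTR1;2, the main sulphate uptake transporter of the root, had 7 bins, of which 6 were lowered, with differences from -23.3 to 11.8 percentage points. Its last intron was retained in 51.7%, 50.0% and 55.0% in Col-0 and in 29.9%, 28.6% and 28.9% in rrc1-3 (edgeR adjusted p = 0.0001). LON2, a peroxisomal protease gene, had an intron at 19.5%, 20.7% and 24.96% against 10.7%, 10.9% and 10.1%. In all 3 genes each mutant library was lower than each wild-type library.

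For expression the deposited file holds one FPKM value per genotype, pooled over its libraries, with the authors' q-value, so no spread between libraries can be given and no gene was tested anew. Only genes they called are listed, and the authors' listing holds 3114 genes that were higher in rrc1-3 and 2516 that were lower. Of the 27444 annotated protein-coding genes 19.7% were listed, 11.0% higher and 8.68% lower. The median log2 change over all listed genes was 0.64, and 1441 of the higher and 1068 of the lower genes changed by at least 1 on this scale. Among nuclear genes with such a change, AT3G21805, 91 nt long, fell most in FPKM, from 4113 to 4.37 in the authors' deposited table. LTP2 rose most, from 2610 to 7099 FPKM in the authors' deposited table. Genes that were higher had longer transcripts, with a median of 1844 nt against 1205.5 nt for genes that were lower. In 5 groups of transcript length, from the shortest to the longest, 23.8%, 43.8%, 56.8%, 72.1% and 79.1% of the listed genes were higher, and whether length bears on a family's direction was not tested. In whole seedlings, fewer cells of a type and less RNA per cell cannot be told apart.

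Families were read against those shares. Of 71 lists of gene families and pathways, 39 had more members higher in rrc1-3 and 25 more lower, and the proteasome, with 39 members, had none listed in either direction.

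**Figure D3:**
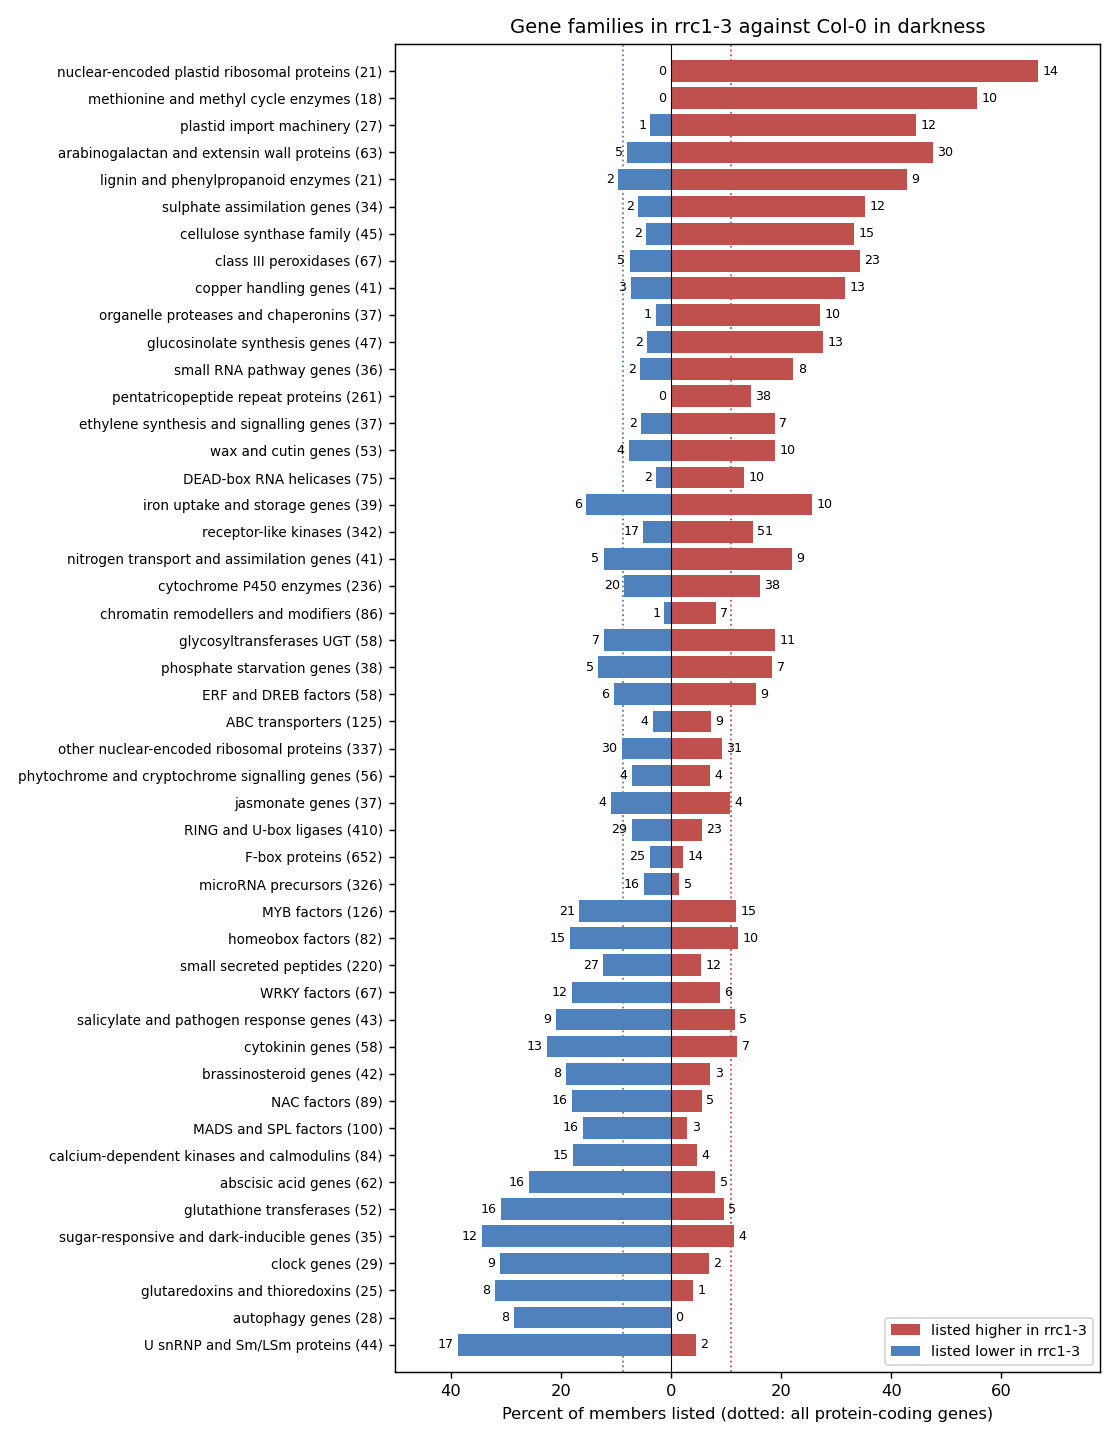
Percent of the members of each family listed as higher (red, right) or lower (blue, left) in rrc1-3, with the number of listed members at each bar and the family size in brackets, for families with at least 8 listed members. Dotted lines give the 11.0% and 8.68% of all protein-coding genes; plastid ribosomal proteins lie at the top with 14 higher and 0 lower, and U snRNP and Sm proteins at the bottom with 2 higher and 17 lower.

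Nuclear genes of plastid translation, import and folding were mostly higher. Of 21 proteins matched to the plastid ribosome by name, 14 were higher and none lower, with a median log2 change of 1.03 over those listed. PRPL11, a large subunit protein, stood at 26.01 FPKM in Col-0 and 66.7 in rrc1-3 in the authors' deposited table. Of 261 pentatricopeptide repeat proteins, which edit and process organelle RNAs, 38 were higher and none lower, with a median of 0.90, and their listed share of 14.6% is below the 19.7% of all protein-coding genes. Among 27 genes of plastid import 12 were higher and 1 lower. TOC159, the receptor that admits photosynthetic precursors, went from 21.2 to 69.8 FPKM and the outer envelope protein gene OEP6 from 14.8 to 89.6 in the authors' deposited table. Chaperonins and proteases of organelles had 10 of 37 higher and 1 lower, led upward by the Rubisco-folding subunits CPN60B, from 22.7 to 98.9 FPKM, and CPN60A, from 32.3 to 123.2, in the authors' deposited table. DEG14, a protease gene, was the exception, with a log2 change of -2.49 there.

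Sulphate and methyl cycle genes that were listed were mostly higher, and listed nitrogen genes were mixed. Of 34 sulphate genes 12 were higher, 2 lower and 20 not listed, with a median log2 change of 1.38 over those listed. APR1 and APR2, which reduce activated sulphate, rose from 1.28 to 6.13 FPKM and from 4.01 to 14.1 in the authors' deposited table. Of 18 enzymes of the methionine and methyl cycle 10 were higher and none lower (median 1.07). Methionine synthase ATMS1 went from 269 to 653 FPKM, the methyl cycle hydrolase SAHH2 from 23.7 to 76.6 and the serine hydroxymethyltransferase SHM1, an enzyme of photorespiration, from 17.8 to 51.4 in the authors' deposited table. Of 41 nitrogen genes 9 were higher, 5 lower and 27 not listed, and the plastid glutamine synthetase GS2 (73.8 to 168 FPKM) and ferredoxin-dependent glutamate synthase GLU1 (23.2 to 60.8) were among those higher in the authors' deposited table.

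Cell wall families formed the next group. Arabinogalactan proteins and extensins, glycoproteins of the wall and the cell surface, had 30 of 63 members higher and 5 lower, with a median log2 change of 1.13. FLA17 went from 11.4 to 41.1 FPKM and AGP18 from 28.4 to 86.8 in the authors' deposited table. In the cellulose synthase family 15 of 45 were higher and 2 lower, among them CSI1, which ties the synthase to microtubules, at 45.9 and 86.2 FPKM in the authors' deposited table. Class III peroxidases, which cross-link the wall, had 23 of 67 higher and 5 lower, and lignin and phenylpropanoid enzymes 9 of 21 higher and 2 lower. Single members went against the majority, as the peroxidase AT2G18150 (8.36 to 1.75 FPKM) and the methyltransferase CCOAMT (8.45 to 1.83) did in the authors' deposited table.

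Markers of cell types moved beside these wall families. Of 6 root hair markers 4 were listed, all higher, and their summed level went from 3.97 to 11.3 FPKM in the authors' deposited table. Of 7 guard cell lineage markers 4 were listed, all higher, with summed levels of 13.4 and 22.8 FPKM in the authors' deposited table. Of 4 xylem markers 1, IRX3, was higher, and 0 of 3 phloem markers were listed. Of 9 seed markers 3 were higher and 1 lower, with summed levels of 24.7 and 10.5 FPKM in the authors' deposited table. That sum follows OLEO2, an oil body protein gene, which went from 23.3 to 6.56 FPKM in the authors' deposited table, while the other listed seed markers were higher. The defining markers that are not listed have no values in the file, and the part of cell number in the wall families was not tested.

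Listed genes of copper handling and glucosinolate synthesis were mostly higher, while most members of both lists were not listed. Copper handling genes had 13 of 41 higher, 3 lower and 25 not listed, with FSD1, an iron superoxide dismutase, at a log2 change of 4.36 in the authors' deposited table. Iron genes had 10 of 39 higher, 6 lower and 23 not listed, and the ferritin gene FER3, which stores iron in plastids, went from 18.6 to 45.2 FPKM in the authors' deposited table. Glucosinolates are sulphur-rich defence compounds, and 13 of their 47 genes were higher, 2 lower and 32 not listed. CYP79B2, which starts the branch from tryptophan, went from 6.46 to 19.7 FPKM in the authors' deposited table. Receptor-like kinases had 51 of 342 higher and 17 lower, with BAM2, a receptor of the meristem, at 5.96 and 19.3 FPKM in the authors' deposited table. The listed share of this family, 19.9%, was near the 19.7% of all protein-coding genes. Ethylene genes had 7 of 37 higher and 2 lower, among them HLS1, which maintains the apical hook, at 15.04 and 30.7 FPKM in the authors' deposited table.

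Stress and detoxification families differed in direction. Cytochrome P450 enzymes had 38 of 236 higher and 20 lower, and glycosyltransferases of the UGT class 11 of 58 higher and 7 lower. Glutathione transferases had 16 of 52 lower, 5 higher and 31 not listed, with a median log2 change of -0.98 over those listed. GSTU24 went from 35.04 to 11.3 FPKM and GSTU1 from 38.5 to 13.2 in the authors' deposited table. Glutaredoxins and thioredoxins had 8 of 25 lower and 1 higher, as CXXS1 was at 165 and 58.0 FPKM in the authors' deposited table. Abscisic acid genes had 16 of 62 lower, 5 higher and 41 not listed. HAI1, a phosphatase of that pathway, went from 67.2 to 16.6 FPKM and the kinase gene SNRK2-8 from 95.8 to 30.9 in the authors' deposited table. Calcium-dependent kinases and calmodulins had 15 of 84 lower and 4 higher. The heat shock factor gene HSFA6A went from 22.1 to 2.39 FPKM in the authors' deposited table, while heat shock proteins had 6 of 28 higher and none lower.

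Dark-inducible and autophagy genes that were listed were more often lower, and phosphate starvation genes were mixed, with 7 of 38 higher and 5 lower. Of 35 sugar-responsive and dark-inducible genes 12 were lower, 4 higher and 19 not listed, with DIN2, a beta-glucosidase gene induced in the dark, at 561 and 249 FPKM in the authors' deposited table. Autophagy genes, which recycle cell contents, had 8 of 28 lower, none higher and 20 not listed (median -0.81). ATG12A went from 42.2 to 16.7 FPKM and ATG8E from 308 to 168 in the authors' deposited table. The sugar transporter SWEET2 went from 115 to 26.9 FPKM in the authors' deposited table, but sugar transporters as a family had 2 of 44 higher and 3 lower. The branched-chain amino acid gene DIN4 was lower in expression by a log2 change of -0.82 in the authors' deposited table and also had a lowered intron, at 27.8%, 29.3% and 30.7% in Col-0 and 15.3%, 16.5% and 16.7% in rrc1-3 (edgeR adjusted p = 7.0e-05).

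Growth hormones and transcription factors followed. Cytokinin genes had 13 of 58 lower and 7 higher: LOG1, which activates the hormone, went from 27.5 to 7.78 FPKM and the response regulator RR5 from 58.9 to 25.3 in the authors' deposited table. Brassinosteroid genes had 8 of 42 lower and 3 higher, among them the synthesis enzyme BR6OX2 at 114 and 55.9 FPKM in the authors' deposited table. NAC factors had 16 of 89 lower and 5 higher, WRKY factors 12 of 67 lower and 6 higher, and MADS and SPL factors 16 of 100 lower and 3 higher. The listed share of MADS and SPL factors, 19.0%, was near the 19.7% of all protein-coding genes. NAC6, a senescence regulator, went from 39.98 to 11.6 FPKM, MYB2, a drought-response factor, from 10.7 to 0.787 and AGL20, which promotes flowering, from 6.55 to 1.11 in the authors' deposited table. MYB factors, with 21 lower and 15 higher of 126, and homeobox factors, with 15 lower and 10 higher of 82, were closer to even. HB-12, which abscisic acid induces, went from 159 to 39.8 FPKM and HB23, a zinc finger homeobox gene, from 4.18 to 13.97 in the authors' deposited table.

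Some families of short transcripts had more listed members lower than higher. U snRNP and Sm proteins, the core of the spliceosome, had 17 of 44 lower, 2 higher and 25 not listed (median -0.72), with LSM3B at 83.1 and 41.4 FPKM in the authors' deposited table. Their median listed transcript is 775 nt. MicroRNA precursors had 16 of 326 lower and 5 higher, so that 6.44% were listed against 19.7% of protein-coding genes. Small secreted peptides had 27 of 220 lower, 12 higher and 181 not listed, a listed share of 17.7%. PSK4, a phytosulfokine growth peptide gene, went from 916 to 200 FPKM and MIR160c from 36.7 to 13.2 in the authors' deposited table. The 14 listed plastid ribosomal proteins above, all higher, are short as well, with a median of 1007 nt. Other families with more members higher had longer listed transcripts. The medians were 2265.5 nt for pentatricopeptide repeat proteins, 2619 nt for the cellulose synthase family and 2774.5 nt for receptor-like kinases. Other ribosomal proteins were even, with 31 of 337 higher and 30 lower, a listed share of 18.1%. This list holds the ribosomal proteins not matched to the plastid list by name, so it may still include plastid members.

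Both tables come from the same libraries, so splicing and expression were set side by side. Of the 4095 genes with an analysed bin, 947 were also listed for expression, which is 23.1% of the spliced genes and 16.8% of the listed ones. Genes whose introns were all raised were mostly lower: of 412 listed, 159 were higher and 253 lower, with a median log2 change of -0.67. Genes whose introns were all lowered were mostly higher, with 356 higher and 94 lower of 450 and a median of 0.78. Intron-containing genes with no analysed bin had 1917 higher and 1561 lower, or 55.1% higher.

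The same counts were made within groups of transcript length. In 4 such groups from short to long, genes with raised introns only were higher in 3.66%, 32.0%, 42.4% and 61.9% of cases, over 82, 97, 99 and 134 genes. Genes with lowered introns only were higher in 47.8%, 74.7%, 75.5% and 87.3%, over 23, 83, 147 and 197 genes. Genes with no analysed bin gave 24.2%, 47.8%, 67.8% and 79.2%. In each length group the genes with raised introns had the smallest share of higher genes and those with lowered introns the largest. Since retention is a ratio of reads of the same gene, the gene's own level enters its precision. Spliced reads also bear on both the retention share and the gene's level, so these measures are not independent. The counts above were not tested.

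**Figure D4:**
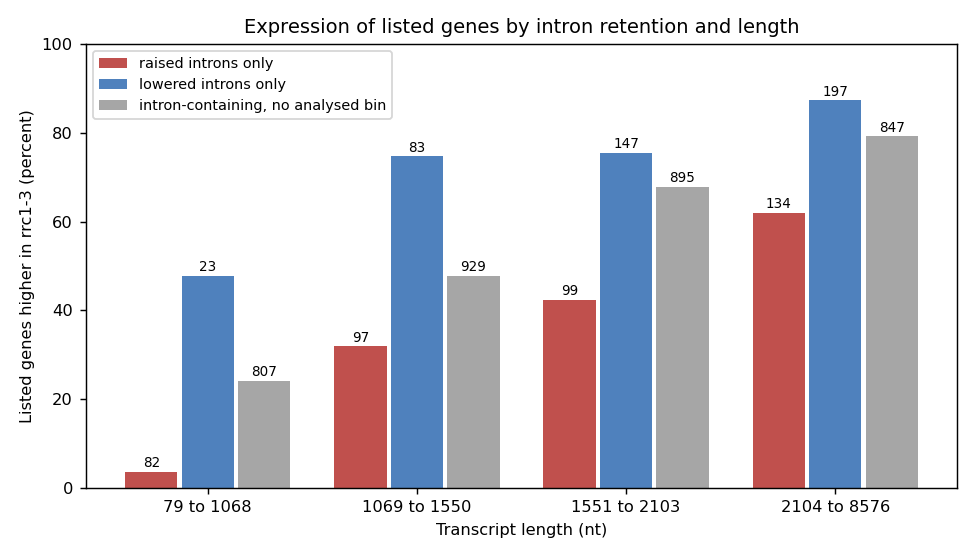
Percent of listed genes that were higher in rrc1-3, by transcript length in nt, for genes with raised introns only (red), lowered introns only (blue) and no analysed bin (grey), with the number of genes above each bar. The red bars run from 3.66% to 61.9% and the blue bars from 47.8% to 87.3%, and blue is above red in each length group.

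Single genes went both ways. CYP71B20, a cytochrome P450 gene, had its intron retained in 22.1%, 20.4% and 20.8% in Col-0 and in 8.19%, 10.8% and 9.61% in rrc1-3 (edgeR adjusted p = 0.00013), while its level was lower by a log2 change of -1.88 in the authors' deposited table. GLT1, a glutamate synthase gene, had intron 9 at 8.41%, 6.18% and 9.71% against 4.92%, 4.12% and 3.68% (edgeR adjusted p = 0.00099) and a log2 change in level of 0.83 in the authors' deposited table. In both genes retention was lower in every mutant library, with opposite changes in level.

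The same genotypes were also compared after red light, in other libraries. Of the plain introns listed in darkness, 1492 were listed again there. Of these, 704 raised and 719 lowered introns kept their direction, and 21 raised and 48 lowered ones had the opposite direction.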

How the data were processed

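Total RNA of seedlings was depleted of ribosomal RNA and sequenced, per the labels' protocols. TopHat2 and the TAIR10 build are named in the submitters' processing notes, and the counter, the caller and the strand setting are not given in the sources used here. The authors deposited expression as FPKM, 1 value per genotype pooled over 3 libraries, with a log2 fold change and a q-value, per the file headers, and only genes with q under 0.05 are listed. They deposited splicing as junction counts per library for each called bin, with a retention or inclusion fraction per group, a false discovery rate (a p-value adjusted by the authors) and a log2 fold change of the bin, per the file headers. The difference between the group fractions is a deposited score computed by the authors. FPKM cannot be turned into counts here, so expression calls are the authors' own.

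Percentages per library were recomputed from the deposited counts, and matched the deposited fraction within 1e-06 in 99.8% of bins. Junction counts were tested with edgeR 4.0.16 in R 4.3.3 (quasi-likelihood, genotype by read kind, each library as its own control, Benjamini-Hochberg over 5977 bins, common dispersion 0.02656, 4 residual degrees of freedom). DESeq2 1.42.0 was an alternative. The test was first tried on simulated data with 100 bins changed per size, each with a mean count of at least 20. It recovered 32% of log2 changes in odds of 1 and 85% of those of 2. A bin that did not pass may therefore still differ. The simulation changed far fewer bins than passed in the data and gave all bins the common dispersion. Its rates therefore need not hold for the real test. No single pair of libraries had identical spliced reads in more than 2.31% of bins. Introns were placed by the RefSeq annotation. The splicing columns are numbered 1 to 6 over both groups, and the last 3 were read as libraries 1 to 3 of rrc1-3. That reading bears on the replicate block alone.

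Members and lists were chosen with earlier results of these data known. Genes were named by rule: in each of 71 lists, up to 4 listed members with the largest change among those of at least 5 FPKM, and up to 3 bins with the smallest deposited rate. To these were added the genes with the largest FPKM differences, the genes with the most bins, and per event class and direction the 4 largest deposited differences among bins with at least 20 reads in every library and groups that do not overlap. Not every gene or bin under these rules is named in the text. Alternatives were DESeq2, no TMM factors, a read minimum, leaving out each library, a replicate block and other thresholds on the listed genes. Paralogues can share reads, and 143 listed genes lie in a region shared with another gene.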

Additional observations from a re-analysis of the deposited data

Results flagged for a closer look

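Intron 1 of UGT85A1, a glycosyltransferase gene, moved in opposite directions in darkness and after red light. In darkness it was retained in 40%, 44.8% and 37.5% in Col-0 and in 13.6%, 11.5% and 35% in rrc1-3, where edgeR's adjusted p was 0.099. After red light it was retained in 19.6%, 24.4% and 18.3% in Col-0 and in 27.04%, 26.4% and 30.6% in rrc1-3, a rise of 7.80 percentage points. An intron of RS2Z32, an SR-type splicing factor gene, went from 45.7%, 45.4% and 47.3% to 31.7%, 37.9% and 40.3% in darkness (edgeR adjusted p = 0.045) and from 40.1%, 40.8% and 43.1% to 43.2%, 45.9% and 44.3% after red light, a rise of 3.15 points. Every library of one genotype lay on one side in darkness and on the other after red light for both introns, and the difference between the conditions was not tested. Without one of the libraries the RS2Z32 intron no longer passed in darkness.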

How the results depend on the processing

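In edgeR's test 3261 bins passed, against 2406 to 2784 when one library was left out, and 1672 passed in the full set and without each library in turn. The higher bins then ran from 1170 to 1490 and the lower bins from 1218 to 1496. DESeq2 passed 2539, of which 2537 also passed in edgeR, and its 25 lower alternative 3′ bins against 38 were the one class count that moved by over 1.5 times; the cause was not tested. No TMM factors gave 1558 higher and 1709 lower, and a minimum of 10 reads in every library gave 1523 and 1704. Of 206 bins under the naming rule, 130 passed and 94 of these did so without each library in turn, among them each bin whose values per library and passing adjusted p stand in the main text, but not the RS2Z32 intron, which lost its call. Other named bins, none of which passed, changed sign without one library, to a log2 change in odds of 0.0013 (PIL6), 0.0891 (GLT1, an alternative 3′ bin), -0.0188 (FRO3), 0.0521 (UGT80B1), -0.0570 (PYM), -0.0963 (MYB3R-3), 0.272 (TMT2), 0.242 (HSF3) and -0.303 (CPN20). For expression, asking for an absolute log2 change of at least 1 left 1441 higher and 1068 lower genes and moved 100 of 142 family counts, a q under 0.01 left 2760 and 2308 and moved 9, and at least 1 FPKM left 2651 and 2388 and moved 11. With the replicate block, 1536 higher and 1693 lower bins passed and 2 of the named bins lost their call. Same-numbered libraries of the genotypes had deviations from their group means that correlated at 0.0173 to 0.0297. The numbering of the libraries is itself an interpretation, so this cannot show whether any of them were prepared together. The listing threshold, the pooled FPKM and the unknown strand setting limit what can be said of genes and introns that are not listed.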
